A study of Mus musculus with 7 samples.

Results

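Innate pattern and Fc receptors were examined as 53 genes out of 12393 measured on 7 microarrays. They were taken by name from the array annotation: Toll-like receptors (Tlr), C-type lectins (Clec), Fc gamma receptors (Fcgr), and the Cd300, Siglec, Nlrp and Trem families, with the scavenger receptors Msr1 and Marco, the lipopolysaccharide co-receptor Cd14 and the adaptors Tyrobp and Fcer1g. Treml1 was left out, and each gene was represented by its brightest probe set. Probe sets assigned to several genes were not used, and no Lilr gene and no paired Ig-like receptor is among the 53. The arrays hold total RNA of cells sorted by flow cytometry from the marrow stroma of OsxCre-mCherry;OcnCre-Topaz double transgenic mice aged 4 to 6 weeks, 6 days after tamoxifen. The Ocn+ group (Topaz, green, osteocalcin reporter) had 3 arrays and the Osx+ group (mCherry, red, osterix reporter) had 4. Both groups came from animals that carried both reporters and had received tamoxifen, and cells positive for both colours were not analysed here. The labels name the drivers as OsxCre and OcnCre and give no further detail of the alleles. The labels do not say whether each array came from a separate mouse, so p-values measure the spread between these arrays, which may be technical in part. Xist signal, given below, differed widely within each group, so the arrays of a group were not all repeats of the same sample.

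Innate receptors let myeloid cells sense microbes, dying cells and antibody. Toll-like receptors bind microbial lipids, proteins and nucleic acids; Fc gamma receptors bind IgG; many C-type lectins, Trem and Cd300 proteins and Fc receptors lack a signalling tail of their own and pair with Tyrobp (DAP12) or Fcer1g, small membrane adaptors carrying an immunoreceptor tyrosine-based activation motif. In bone the same adaptors serve as co-stimulatory partners during osteoclast formation, and macrophages, osteoclasts, neutrophils and their precursors are the usual carriers of these receptors in marrow. Some family members have other roles: Clec14a is an endothelial glycoprotein, Clec11a (osteolectin) is a secreted growth factor of stromal and bone-forming cells, and Fcgrt is the neonatal Fc receptor, which recycles IgG and albumin in many cell types.

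The promoters of the 5 members of smallest unadjusted p among those with a RefSeq promoter are shown, each by its first listed window and whether or not it holds a match, because the receptors of myeloid cells are classical targets of the factor PU.1, whose purine-rich recognition core, the PU box, reads GAGGAA. RefSeq promoters (GRCm38.p6, 300 bases, most of them upstream of the start of transcription) were found for 43 of the 53 members, 50 promoters in all. Each line is written 5′ to 3′ on the strand of the gene, with every GAGGAA, or TTCCTC where it lies on the opposite strand, in capitals. The first is Tlr1 at chr5:64933509-64933808 (minus strand), the second Clec7a at chr6:129472730-129473029 (minus strand), the third Clec2d at chr6:129180365-129180664 (plus strand), the fourth Clec4d at chr6:123261857-123262156 (plus strand), and the last Clec14a at chr12:58269209-58269508 (minus strand).
Tlr1: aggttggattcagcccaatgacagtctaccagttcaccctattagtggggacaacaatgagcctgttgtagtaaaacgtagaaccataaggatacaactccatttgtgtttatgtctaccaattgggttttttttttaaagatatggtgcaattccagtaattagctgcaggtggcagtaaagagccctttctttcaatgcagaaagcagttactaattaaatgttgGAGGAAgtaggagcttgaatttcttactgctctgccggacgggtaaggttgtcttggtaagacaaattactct
Clec7a: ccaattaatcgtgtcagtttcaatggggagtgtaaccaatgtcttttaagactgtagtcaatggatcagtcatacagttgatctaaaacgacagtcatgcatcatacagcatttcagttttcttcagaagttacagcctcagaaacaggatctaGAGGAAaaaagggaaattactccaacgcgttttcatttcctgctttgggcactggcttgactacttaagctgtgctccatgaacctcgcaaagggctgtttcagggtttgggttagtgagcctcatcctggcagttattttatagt
Clec2d: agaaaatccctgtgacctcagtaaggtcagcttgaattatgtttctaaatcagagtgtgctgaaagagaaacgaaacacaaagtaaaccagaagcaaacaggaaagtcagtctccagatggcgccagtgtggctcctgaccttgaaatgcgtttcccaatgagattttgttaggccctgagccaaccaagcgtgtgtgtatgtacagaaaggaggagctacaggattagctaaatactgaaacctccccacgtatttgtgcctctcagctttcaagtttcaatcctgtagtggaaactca
Clec4d: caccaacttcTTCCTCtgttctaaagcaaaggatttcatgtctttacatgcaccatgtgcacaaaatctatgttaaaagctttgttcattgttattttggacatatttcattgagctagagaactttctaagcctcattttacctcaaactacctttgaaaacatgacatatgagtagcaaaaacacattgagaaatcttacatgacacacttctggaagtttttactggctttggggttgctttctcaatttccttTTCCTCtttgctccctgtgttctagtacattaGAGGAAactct
Clec14a: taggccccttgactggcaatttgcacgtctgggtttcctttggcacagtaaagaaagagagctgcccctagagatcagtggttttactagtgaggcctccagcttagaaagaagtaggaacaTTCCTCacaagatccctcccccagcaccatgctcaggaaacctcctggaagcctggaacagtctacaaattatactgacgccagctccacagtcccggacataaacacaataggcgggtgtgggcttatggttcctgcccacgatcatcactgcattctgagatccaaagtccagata
Tlr1, Clec7a and Clec4d were dimmer and Clec14a and Clec2d were brighter in Ocn+ arrays, as described below. The letters stood once in Tlr1, Clec7a and Clec14a, 3 times in Clec4d and nowhere in Clec2d. Another RefSeq window of Tlr1, from a different start, did not hold them, nor did those of Clec2i. GAGGAA stood on either strand in 28 of the 50 member promoters (56.0%), from 26 genes, and in 9289 of 32851 promoters of the same length over the genome (28.3%). Another ETS-type hexamer, CCGGAA, which cannot cover the same GGAA, was in 6 member promoters (12%) and in 14.9% of all. A match describes only the letters of the window, and 7 members contribute more than 1 window, some of which overlap.

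More innate receptors stood lower than higher in Ocn+ arrays, 37 against 16 of the 53. Of all genes 47.3% were lower on average in Ocn+ arrays, and the median difference (Ocn+ minus Osx+) was -0.24 among the members and 0.02 over all genes. From the 25th percentile of signal upward 24 of 36 members were lower, against 41.9% of all such genes. That share is below 47.3%, so dim genes leaned lower in general. Among the 17 dim members 13 were lower, for which 47.3% is not a matched background. The largest deficits were those of Tlr1, Clec7a, Tlr7 and Nlrp3, and the largest excesses those of Clec14a, Trem3 and Clec2d. Of these, Tlr7 was dim, below the 25th percentile of signal over all genes. The adaptors Tyrobp and Fcer1g, among the brightest members, showed no such deficit. No single member passed: limma with Benjamini-Hochberg adjustment over 12393 genes called 0 members and 0 genes overall (0%) at 0.05, the smallest adjusted p of a member being 0.689. At an unadjusted p under 0.05 there were 9 members, 6 lower and 3 higher in Ocn+, where 5.31% of all genes had such a p (1.83% lower and 3.48% higher). The array values of the groups were fully separate for 7 members, 5 lower and 2 higher, against 6.90% of all genes (2.53% and 4.37%). These are bulk samples, so fewer cells carrying a receptor and less of its RNA per cell cannot be told apart.

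**Figure D1:**
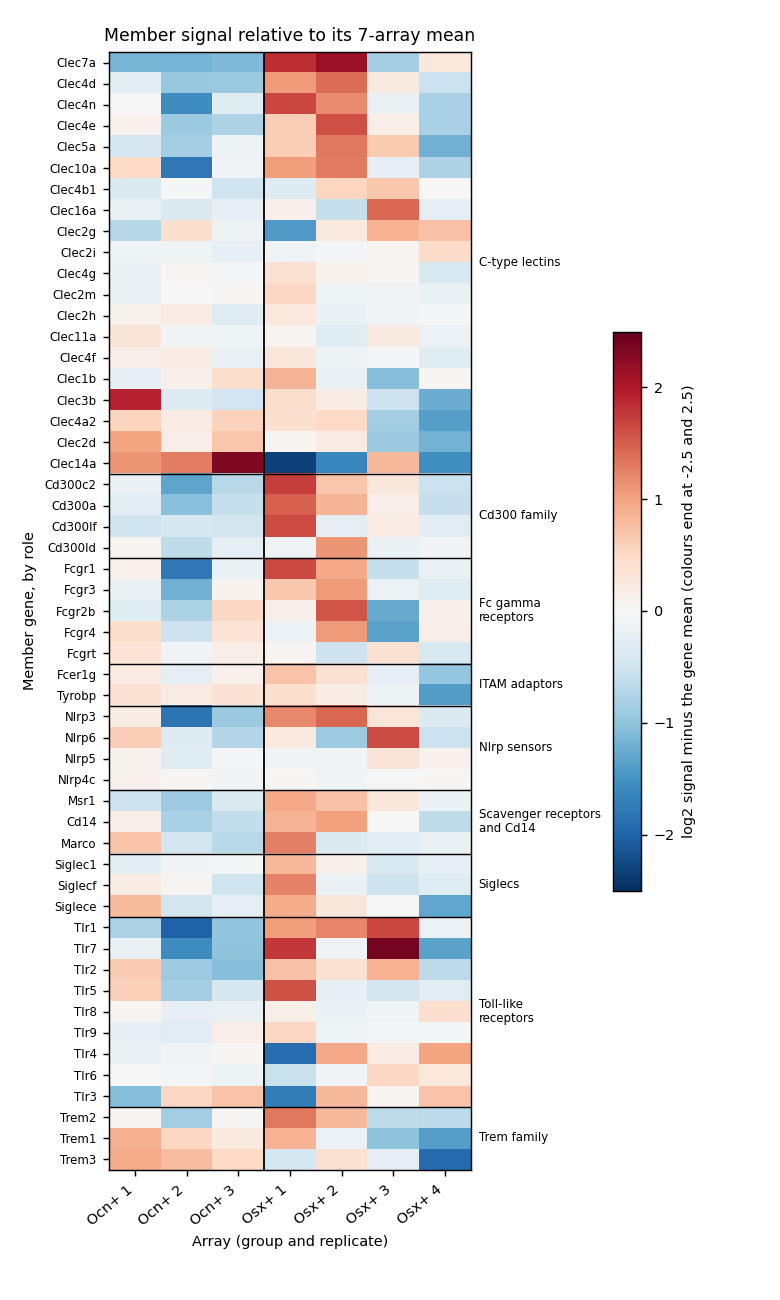
Log2 signal of each of the 53 members (rows, by role) in each of the 7 arrays (columns) minus the mean of that gene over the arrays; red is above and blue below the mean. Osx+ replicate 1 is the highest array for 20 members and Ocn+ replicate 2 the lowest for 20.

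Level and spread differed widely among the members. The mean log2 signal ran from 3.77 for Tlr8 to 13.4 for Clec11a. Measured against all genes, 16 members lay above the median signal (8.95), 20 between it and the 25th percentile (6.03), and 17 below the latter. No detection calls were used here, so those 17 may or may not exceed background. Osx+ arrays, 4 of the 7, gave the highest value of 45 of the 53 members and of 66.3% of all genes. By array these were 20 members in replicate 1 (26.0% of all genes), 12 in replicate 2 (12.5%), 10 in replicate 3 (15.6%) and 3 in replicate 4 (12.2%). The members also scattered more among Osx+ arrays: the median SD was 0.80 in Osx+ and 0.36 in Ocn+, against 0.40 and 0.26 over all genes, and 44 members had the larger SD in Osx+, as did 75.4% of all genes.

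Markers of other cells also differed between the same arrays. The mean of 20 macrophage markers was 9.64 to 10.45 in Ocn+ and 10.59 to 11.57 in Osx+ arrays, with 17 of 20 genes lower in Ocn+ and a median difference of -1.02. Cartilage markers were lower in 10 of 12, with a median of -0.98, though their means overlapped (9.74 to 11.28 against 10.80 to 12.68). The means of 15 neutrophil markers (10.21 to 10.42 against 7.22 to 9.90), 12 osteoclast markers (10.32 to 10.73 against 8.41 to 10.16) and 20 endothelial markers (9.41 to 9.72 against 6.57 to 8.99) were higher in every Ocn+ array than in any Osx+ array, with 13, 12 and 19 genes higher, and so was the mean of 5 eosinophil markers (4.93 to 7.28 against 4.25 to 4.87). Monocyte (10.30 to 10.67 against 9.73 to 10.97) and dendritic cell markers (7.82 to 8.52 against 7.28 to 8.70) overlapped, as did those of B lineage, NK, mast and megakaryocytic cells. The 11 measured osteoblast lineage markers were bright in both groups, at 12.32 to 12.72 and 11.39 to 12.56, and their lowest array was Osx+ replicate 1; Col1a1, the main collagen of bone, stood at 14.95 ± 0.03 (SD, n = 3) and 14.999 ± 0.05 (SD, n = 4). Leukocyte and osteoclast transcripts were also bright (S100a9 of neutrophils at 14.14 and Acp5 of osteoclasts at 14.12 on average in Ocn+), so the level of bone markers alone does not settle which cells the arrays hold. The part of these markers in the receptor differences was not tested. An Xist signal of 12.33 to 12.96 in 2 Ocn+ and 2 Osx+ arrays and of 4.87 to 5.79 in 1 Ocn+ and 2 Osx+ arrays split the series into classes, within which differences are given below; Xist is transcribed from the inactive X chromosome of female cells.

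**Figure D2:**
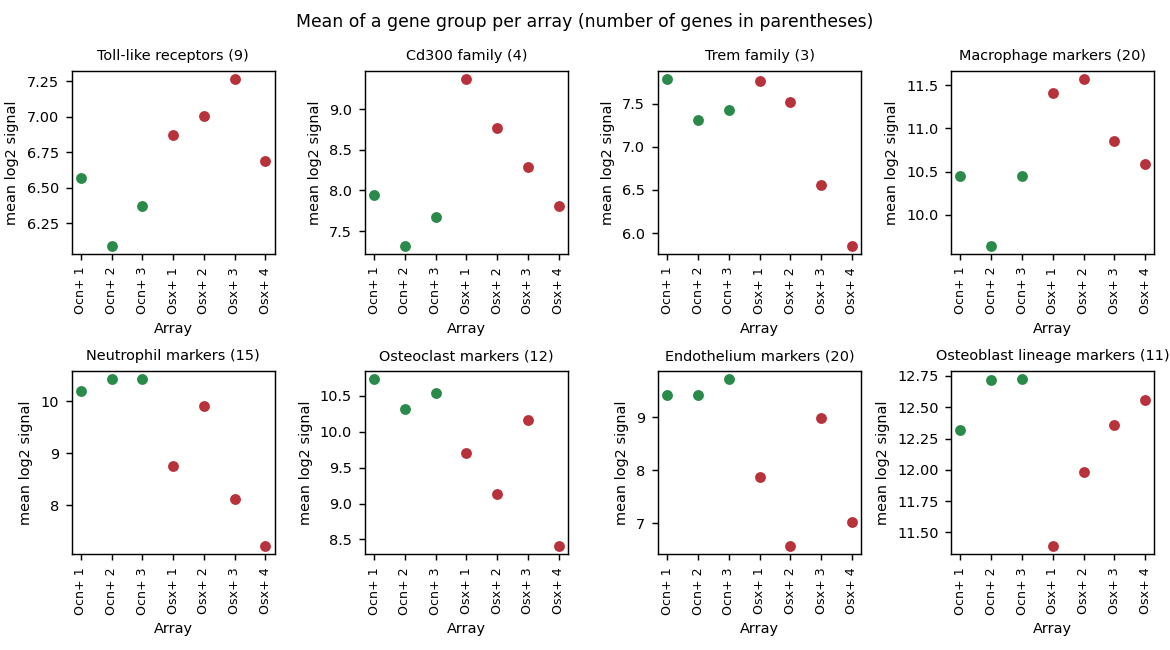
Mean log2 signal of a gene group (y axis) in each array (x axis; green Ocn+, red Osx+), for 3 receptor families and 5 marker lists. The means of Toll-like receptors and macrophage markers are lower in all 3 Ocn+ arrays than in any Osx+ array. Those of neutrophil, osteoclast and endothelial markers are higher in all 3 Ocn+ arrays than in any Osx+ array.

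Most Toll-like receptors stood lower on average in Ocn+ arrays, Tlr1 most of all. Of 9 measured receptors 8 had a difference below 0, with a median of -0.20. The mean of the 9 was 6.09 to 6.57 in Ocn+ and 6.69 to 7.26 in Osx+ arrays, without overlap. The gap in that mean draws most on Tlr1 (-2.21) and Tlr7 (-1.61). The other differences ran from -0.77 to 0.10, and Tlr1 was the only receptor whose groups did not overlap. Tlr1, which pairs with Tlr2 to bind triacylated bacterial lipopeptides, read 6.10, 4.84 and 5.88 in the Ocn+ arrays and 7.92, 8.09, 8.53 and 6.72 in the Osx+ arrays. All Osx+ values lay above all Ocn+ values, and Osx+ replicate 4 was nearest to the Ocn+ group. The difference was -2.21 (SE 0.49), or 4.62-fold, with an unadjusted p of 0.00251 and a limma adjusted p of 0.689. It was -2.04 among high-Xist arrays and -2.13 among low-Xist arrays, and between -2.57 and -1.83 when any 1 array was left out.

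Tlr2, the shared partner of Tlr1 and Tlr6 and the brightest Toll-like receptor, read 11.64, 10.10 and 9.92 in Ocn+ and 11.72, 11.39, 11.86 and 10.34 in Osx+ arrays. The groups overlapped, since Ocn+ replicate 1 lay with the high Osx+ arrays; the difference was -0.77 (SE 0.53), and -0.85 and -0.15 within the high-Xist and low-Xist classes. Tlr6, the other partner and the neighbour of Tlr1 on the chromosome, differed by -0.10 (SE 0.26); whether it differed from Tlr1 was not tested. Tlr7, a sensor of single-stranded RNA in endosomes, averaged 6.02, below the 25th percentile of signal, and was uneven. It read 5.84, 4.45 and 5.02 in Ocn+ and 7.80, 5.95, 8.43 and 4.69 in Osx+ arrays. Its replicates 1 and 3 of Osx+ were high and replicate 4 was as low as Ocn+, giving -1.61 (SE 0.90). Both high arrays belong to the low-Xist class, where the difference was -2.27, against -0.58 in the high-Xist class. A further Tlr7 probe set gave -1.71 with the same order of arrays. The remaining one gave -0.70 with another order, at 5.40, 7.67, 4.59 and 6.95 in Osx+ arrays, so the high replicates 1 and 3 were not seen there.

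The other Toll-like receptors overlapped between the groups. Tlr3, a receptor of double-stranded RNA, averaged 7.33 ± 0.97 (SD, n = 3) and 7.23 ± 1.18 (SD, n = 4), and the lowest values, 6.21 and 5.53, were those of replicate 1 in both groups; a dim second probe set gave -0.41. Tlr4, the lipopolysaccharide receptor, showed the same low replicate 1 in Osx+ (5.25, with the others at 7.35 to 8.15) and differed by -0.13 (SE 0.68), or by 0.30 in its other probe set. Tlr5, the flagellin receptor, differed by -0.40, Tlr9, the sensor of unmethylated CpG DNA, by -0.19, and Tlr8 by -0.20 (SE 0.19); all 3 were below the 25th percentile of signal.

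Cd14 and the scavenger receptors also had differences below 0, though the sign for Marco changed with the arrays used. Msr1, the class A scavenger receptor of macrophages, read 7.24, 6.84 and 7.40 in Ocn+ and 8.71, 8.48, 8.04 and 7.58 in Osx+ arrays. The groups did not overlap, by a gap of less than the SD of either group. Its difference of -1.05 (SE 0.30; 95% confidence interval -1.76 to -0.33) had an unadjusted p of 0.0102, and limma's adjusted p was 0.758. The 3 further probe sets of Msr1 gave -1.71, -1.34 and -0.54, so all 4 were lower in Ocn+. Cd14, which hands lipopolysaccharide to Tlr4, was bright in all arrays, at 11.38, 10.41 and 10.60 in Ocn+ and 12.07, 12.24, 11.23 and 10.58 in Osx+, a difference of -0.74 (SE 0.45). Marco, a scavenger receptor of particular macrophage populations, differed by -0.25 (SE 0.51). It was highest in replicate 1 of both groups, at 8.20 in Osx+ and 7.64 in Ocn+. Without Osx+ replicate 1 its difference was 0.13.

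**Figure D3:**
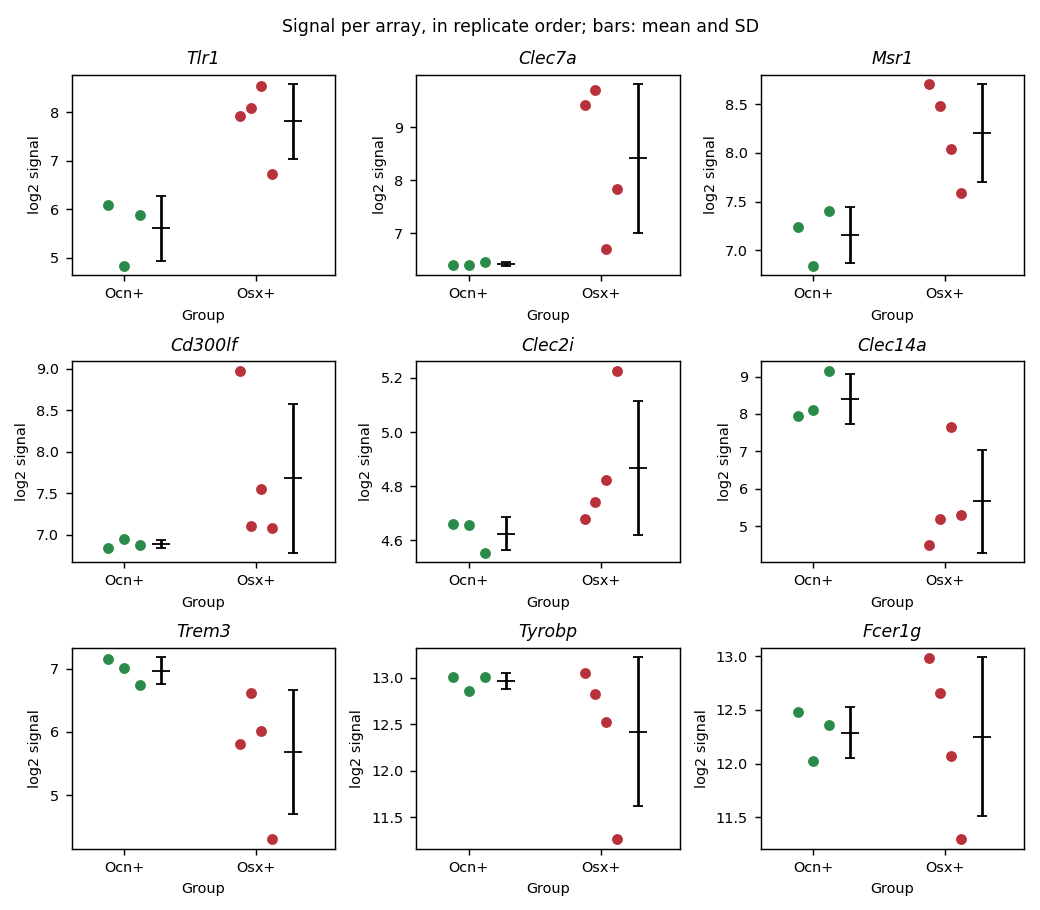
Log2 signal (y axis) per array in replicate order for the 7 members whose groups did not overlap and for the adaptors Tyrobp and Fcer1g; black bars give mean and SD (n = 3 Ocn+ and 4 Osx+). Tlr1, Clec7a, Msr1, Cd300lf and Clec2i lie lower and Clec14a and Trem3 higher in Ocn+, while both adaptors overlap and are lowest in Osx+ replicate 4.

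The adaptors themselves overlapped between the groups, with a single Osx+ array below all others. Tyrobp, the partner of Trem2, Clec5a and other activating receptors, read 13.01, 12.86 and 13.01 in Ocn+ and 13.06, 12.83, 12.53 and 11.26 in Osx+ arrays. Osx+ replicate 4 was far below the rest, and the other 6 arrays lay between 12.53 and 13.06. The difference of 0.54 (SE 0.42) was 0.16 without that array. Fcer1g, the adaptor of Fc gamma receptors and of Clec4d, Clec4e and Clec4n, showed the same low array (11.29 against 12.02 to 12.98 elsewhere) and differed by 0.04 (SE 0.40; 95% confidence interval -0.90 to 0.98). Its sign turned when Osx+ replicate 4 was left out (-0.28) and after median centring (-0.026).

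Among Fc gamma receptors the activating Fcgr1 and Fcgr3 stood lower on average in Ocn+ and the activating Fcgr4 did not; none passed. Fcgr1, the high-affinity IgG receptor, read 9.34, 7.45 and 9.08 in Ocn+ and 10.89, 10.19, 8.65 and 9.07 in Osx+ arrays. The upper Osx+ arrays were replicates 1 and 2, the remaining ones lay within the Ocn+ range, and the difference was -1.08 (SE 0.67), with -1.36 in the high-Xist and -0.44 in the low-Xist class. Fcgr3, the low-affinity activating receptor, averaged 10.64 ± 0.68 (SD, n = 3) and 11.39 ± 0.66 (SD, n = 4), a difference of -0.75 (SE 0.44). Fcgr2b, the inhibitory receptor, differed by -0.34 (SE 0.64), which was 0.13 without Osx+ replicate 2 and 0.26 in the low-Xist class; its 4 probe sets ran from -0.34 to -0.13. Fcgr2b and Fcgr3 are close paralogs and the Fcgr2b probe set is of a type shared between transcripts, so their signals may not be fully separate. Fcgrt, outside this activating and inhibitory pair, was bright throughout, at 12.94 ± 0.21 (SD, n = 3) and 12.68 ± 0.41 (SD, n = 4), and differed by 0.26 (SE 0.26). Fcgr4 differed by 0.15 (SE 0.55).

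All 4 Cd300 genes, which lie near each other on chromosome 11 and encode lipid-binding receptors of myeloid cells, had a difference below 0. Cd300c2, an activating member, read 9.07, 7.92 and 8.53 in Ocn+ and 10.97, 9.93, 9.51 and 8.70 in Osx+ arrays. Only Osx+ replicate 4 fell inside the Ocn+ range, and the difference was -1.27 (SE 0.54), with an unadjusted p of 0.0495 and a limma adjusted p of 0.938. Cd300a, an inhibitory member, had the same order of Osx+ arrays (11.25, 10.59, 9.91 and 9.18, against 9.46, 8.70 and 9.17 in Ocn+) and differed by -1.12 (SE 0.48). Both differences were alike in the Xist classes, at -1.09 and -1.17 for Cd300c2 and -0.95 and -1.12 for Cd300a. Cd300lf, another inhibitory member, was at 6.84, 6.94 and 6.88 in Ocn+ and at 8.98, 7.10, 7.54 and 7.08 in Osx+ arrays. Its groups did not overlap, but the difference of -0.79 (SE 0.46) rested mostly on Osx+ replicate 1 and was -0.36 without it. Cd300ld differed by -0.47 (SE 0.36), with 7.47 in Osx+ replicate 2 and at most 6.42 in every other array.

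Trem genes were divided. Trem3 and Trem1, neighbours on chromosome 17 and receptors of neutrophils and monocytes that amplify inflammation, were brighter in Ocn+, and Trem2, a receptor of macrophages and osteoclasts for lipids and cell debris, was not. Trem3 read 7.15, 7.01 and 6.74 in Ocn+ and 5.81, 6.61, 6.01 and 4.30 in Osx+ arrays. Ocn+ replicate 3 stayed just above Osx+ replicate 2, so the groups did not overlap, and the difference was 1.28 (SE 0.51) or 2.43-fold, with an unadjusted p of 0.0389 and a limma adjusted p of 0.935. Trem1 read 6.81, 6.44 and 6.15 against 6.78, 5.77, 4.92 and 4.54, a difference of 0.96 (SE 0.53) in which Osx+ replicate 1 overlapped with Ocn+. It was dim, with a mean of 5.92 that lay below the 25th percentile of signal. The neutrophil markers were higher in the same arrays and were likewise lowest in Osx+ replicate 4; their part was not tested. Trem2 read 9.40, 8.50 and 9.39 in Ocn+ and 10.69, 10.17, 8.73 and 8.72 in Osx+ arrays, with Osx+ replicates 1 and 2 high and the other pair within the Ocn+ range, a difference of -0.48 (SE 0.56). A second Trem2 probe set was dim, at 5.65 on average, and gave -0.06.

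C-type lectins were the largest family, with 20 members, 13 of them lower and 7 higher in Ocn+ arrays and a median difference of -0.16. The lowest differences were those of Clec7a, Clec4d, Clec4n, Clec4e, Clec5a and Clec10a; of these, Clec7a and Clec4d had an unadjusted p under 0.05. Clec7a (Dectin-1), the receptor of fungal beta-glucan, read 6.42, 6.40 and 6.47 in Ocn+ and 9.42, 9.70, 6.71 and 7.83 in Osx+ arrays. The Ocn+ arrays were nearly identical, and Osx+ replicate 3 lay just above them. The difference of -1.99 (SE 0.70) was 3.96-fold, with an unadjusted p of 0.0251 and a limma adjusted p of 0.888, and it was -2.33 and -1.65 in the high-Xist and low-Xist classes.

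Clec4d, Clec4e and Clec4n (Dectin-3, Mincle and Dectin-2), receptors of mycobacterial and fungal glycolipids and mannans, lie side by side on chromosome 6 with Clec4a2 and Clec4b1. Clec4d read 10.89, 10.21 and 10.23 in Ocn+ and 12.22, 12.56, 11.38 and 10.63 in Osx+ arrays; only Osx+ replicate 4 reached into the Ocn+ range, and the difference was -1.25 (SE 0.47), with an unadjusted p of 0.0325 and a limma adjusted p of 0.928. Clec4n differed by -1.08 (SE 0.67), and by -1.20 in its other probe set, and Clec4e by -0.92 (SE 0.56), with -0.47 in a dim second probe set. Clec4a2, an inhibitory lectin of dendritic and other myeloid cells in the same gene cluster, went the other way. It read 10.07, 9.72 and 10.10 in Ocn+ and 9.91, 10.01, 8.65 and 8.13 in Osx+ arrays, with Osx+ replicates 3 and 4 low, a difference of 0.79 (SE 0.48) that its other probe set gave as 0.84. Clec4b1, its close paralog, was dim and differed by -0.52 (SE 0.28); 1 probe set assigned to both genes was not used. The probe sets of Clec4d and Clec4n are of the type shared between transcripts.

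Clec14a, an endothelial glycoprotein of vessel growth, had the largest excess of the 53 members. It read 7.94, 8.11 and 9.16 in Ocn+ and 4.51, 5.20, 7.64 and 5.29 in Osx+ arrays. Osx+ replicate 3 came close to the Ocn+ arrays and is also the Osx+ array with the highest endothelial marker mean (8.99). The difference of 2.75 (SE 0.74) was 6.71-fold, with an unadjusted p of 0.00712 and a limma adjusted p of 0.731; it was 3.39 and 1.87 in the high-Xist and low-Xist classes. With arrays weighted by their fit, Clec14a was the 1 member called (difference 2.91, limma adjusted p = 0.0491, where 0.783% of all genes were called). The weights ran from 0.236 (Osx+ replicate 1) to 6.02 (Ocn+ replicate 2). Osx+ replicate 3, the Osx+ array nearest to Ocn+ for Clec14a, had only 0.353. Over the alternatives for Clec14a the limma adjusted p ran from 0.0491 to 1.00. A second Clec14a probe set read 6.07, 6.85 and 7.999 in Ocn+ and 4.98, 5.32, 7.49 and 5.80 in Osx+ arrays, which overlap, and gave 1.07 (SE 0.69). Cdh5, the endothelial junction cadherin, differed by 3.44 (SE 0.54) in the same arrays; its part was not tested.

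Clec2d, a ligand of an inhibitory NK cell receptor found on many leukocytes and on osteoblasts, had the second largest excess among lectins, at 10.39, 9.57 and 10.10 in Ocn+ and 9.46, 9.62, 8.47 and 8.22 in Osx+ arrays. Ocn+ replicate 2 fell below Osx+ replicate 2, and the difference was 1.08 (SE 0.41), with an unadjusted p of 0.0321 and a limma adjusted p of 0.928. Clec11a was the brightest member and nearly level, at 13.43 ± 0.24 (SD, n = 3) and 13.34 ± 0.24 (SD, n = 4), a difference of 0.09 with a 95% confidence interval of -0.38 to 0.56. Clec3b (tetranectin), a secreted lectin of mineralizing tissue, differed by 0.66 (SE 0.67), with a single high value of 10.19 in Ocn+ replicate 1. Clec2i, named after its values were seen because its arrays did not overlap, was dim (4.55 to 4.66 against 4.68 to 5.23) and differed by -0.24. Clec10a and Clec5a, lectins of macrophages and myeloid cells, differed by -0.80 and -0.81, and the remaining 7 lectins by -0.44 to 0.21.

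**Figure D4:**
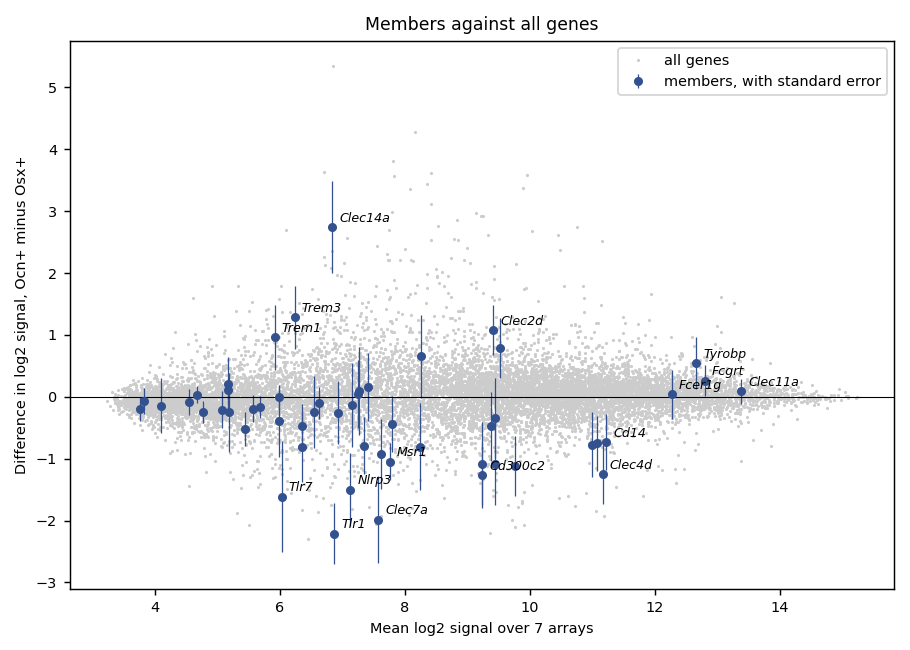
Difference in log2 signal (Ocn+ minus Osx+, y axis) against the mean log2 signal over 7 arrays (x axis) for all 12393 genes (grey) and the 53 members (blue, bars 1 standard error). Tlr1 (-2.21) and Clec7a (-1.99) lie lowest and Clec14a (2.75) highest. At high signal Fcer1g (0.04), Clec11a (0.09) and Fcgrt (0.26) lie nearer to 0 than Tyrobp (0.54).

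Nlrp sensors and Siglecs were mostly dim. Nlrp3, the inflammasome sensor of myeloid cells, read 7.30, 5.31 and 6.197 in Ocn+ and 8.32, 8.56, 7.42 and 6.76 in Osx+ arrays. The groups overlapped through Ocn+ replicate 1 and Osx+ replicate 4, and the difference of -1.50 (SE 0.59), 2.83-fold, had an unadjusted p of 0.0379 and a limma adjusted p of 0.935, with -1.91 and -0.57 in the Xist classes. Nlrp6, Nlrp5 and Nlrp4c, sensors of epithelium and of germ cells, were below the 25th percentile of signal and differed by -0.25, -0.16 and 0.03, the last turning to -0.032 after median centring. Siglece, an inhibitory sialic acid receptor of myeloid cells, differed by 0.05 (SE 0.55), which turned to -0.013 after median centring and -0.021 after quantile normalization. Siglec1 of macrophages and Siglecf of eosinophils were below the 25th percentile and differed by -0.21 and -0.14, with their highest values (5.90 and 5.33) in Osx+ replicate 1; further Siglec1 probe sets gave -0.17 and 0.17.

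**Figure D5:**
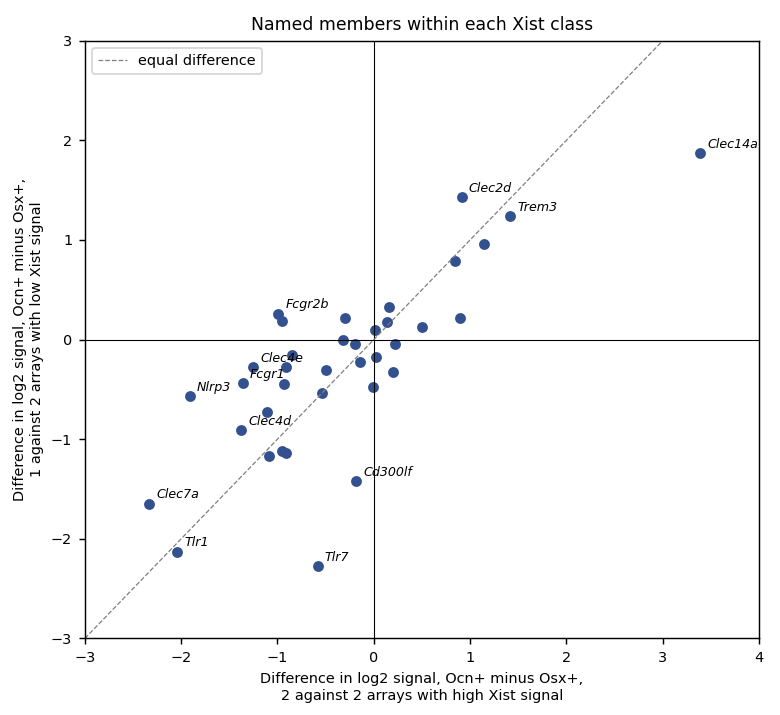
Difference in log2 signal (Ocn+ minus Osx+) of the 37 named members within the 4 arrays of high Xist signal (x axis, 2 against 2) and within the 3 of low Xist signal (y axis, 1 against 2); the dashed line marks equal differences. Tlr1, Clec7a and Clec4d are below 0 and Clec14a, Trem3 and Clec2d above 0 in both classes, while Tlr7 and Cd300lf are far from equal and Fcgr2b changes sign. For Tlr1, Clec7a, Clec14a and Trem3, whose groups do not overlap over all arrays, the sign could not differ between the classes.

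Other genes of these pathways had median differences near 0, with single genes at either end. From 4 lists of other genes of these pathways, 88 were measured and limma called 0 after adjustment over all genes. Among 21 genes of Toll-like receptor signalling 12 were lower and 9 higher in Ocn+, with a median difference of -0.06 and 1 unadjusted p under 0.05. That gene, Sigirr, an inhibitory receptor of the family, read 7.93, 7.29 and 7.86 in Ocn+ and 6.71, 5.87, 7.03 and 6.13 in Osx+ arrays, without overlap (difference 1.26, SE 0.32). Lbp, the lipopolysaccharide-binding protein, differed by 1.06 (SE 0.49) and Ly86, a partner of a Toll-like receptor homologue, by -0.88 (SE 0.51). Among 21 genes downstream of activation and inhibition motifs 7 were lower and 14 higher, with a median of 0.10. The kinases Src and Fgr differed by 0.95 (SE 0.35) and -1.18 (SE 0.60), and Pik3cg, a lipid kinase of leukocytes, by -0.86 (SE 0.46).

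Inflammasome genes were lower in 9 of 13, with a median of -0.12. Il1a, the cytokine interleukin-1 alpha, read 5.64, 4.97 and 5.26 in Ocn+ and 6.91, 6.99, 7.497 and 5.99 in Osx+ arrays, an arrangement without overlap like that of Tlr1 (difference -1.56, SE 0.36, limma adjusted p = 0.689). Naip5, a flagellin sensor, differed by -0.90 (SE 0.42) and Txnip, a redox protein, by 0.64 (SE 0.27). Related receptors outside the named families were even, with 16 of 33 lower and a median of 0.01, but their ends were far apart. Oscar, a collagen receptor of osteoclasts that signals through Fcer1g, read 9.87, 9.81 and 10.26 in Ocn+ and 5.64, 5.84, 8.04 and 5.14 in Osx+ arrays (difference 3.82, SE 0.65, limma adjusted p = 0.556). It was called without Osx+ replicate 3, with array weights and within the high-Xist arrays, where 0.0242%, 0.783% and 0.153% of all genes were called. Mrc1, the mannose receptor of macrophages, differed by -1.996 (SE 0.73) and Mrc2, its collagen-binding relative of mesenchymal cells, by 0.61 (SE 0.24). Oscar is also among the osteoclast markers and Mrc1 among the macrophage markers above, whose part was not tested.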

How the data were processed

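Total RNA of 7 samples had been amplified with the NuGen Ovation V2 method, labelled with biotin and hybridised to 1-colour Affymetrix arrays, per the labels' protocols. The deposited values are on the log2 scale, and the submitters' processing notes name RMA (background correction, quantile normalization and probe summary) as the tool; its version is not stated there. RMA equalises the arrays, so total RNA per cell cannot be read. Array medians were 8.25 to 8.35 over all probe sets. Over the genes used here they ran from 8.82 in Osx+ replicate 4 to 9.07 in Ocn+ replicate 1. An array has no read depth, and precision rests on 3 and 4 arrays.

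Of 22690 probe sets, 20380 had 1 gene symbol, 691 several and 1555 none listed, and 64 were controls; 20351 were matched to current symbols by Entrez identifier. The probe set of highest mean represented each of 12393 genes. Ocn+ was compared with Osx+ over all genes in limma 3.58.1 (R 4.3.3; lmFit, eBayes, 2-sided, Benjamini-Hochberg, 0.05), and the fit was tested on simulated data. A fold is the brighter group over the dimmer on the linear scale. Members, pathway lists and marker lists were chosen with earlier results of these data known. The naming rule took, per family, the 4 members of smallest p (8 lectins), the 2 brightest (4 lectins) and Tyrobp, Fcer1g, Cd14, Msr1 and Marco, 37 in all, and the 3 pathway genes of smallest p per list; members outside it are accounted for after their values were seen. The mean of 10 stromal progenitor markers was also measured (Ocn+ 8.72 to 9.34, Osx+ 8.21 to 9.28). The replicate numbers were not used to pair the samples in the main fit. Same-numbered arrays deviated together with correlations of 0.626, 0.447 and -0.304. Arrays numbered 1 shared an Xist class, as did those numbered 2, and those numbered 3 did not. These values cannot settle whether same-numbered arrays share animals.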

Additional observations from a re-analysis of the deposited data

Results flagged for a closer look

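Of 78 sets of 4 Osx+ values checked (named genes and group means), 3 held an array far from the other 3, where chance gives about 5%. Cd300ld stood at 7.47 in Osx+ replicate 2 and at 6.199 to 6.29 in the others, a gap of 0.932 of the whole range. Marco stood at 8.20 in Osx+ replicate 1 and at 6.57 to 6.75 in the others, a gap of 0.886 of the range. The mean of the Toll-like receptor signalling genes was 9.44 in Osx+ replicate 4 and 9.73 to 9.76 in the others, a gap of 0.890 of the range.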

How the results depend on the processing

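The difference of the member mean, -0.29, stayed below 0 in all 19 alternatives, at -0.47 to -0.16. No member was called in any of them except Clec14a, with array weights (1 called). Of pathway genes 1 (Oscar) was called with array weights, within the high-Xist arrays and without Osx+ replicate 3 (97, 19 and 3 genes called over all genes), and 0 otherwise. Members with an unadjusted p under 0.05 numbered 9, and 15 with the replicate number as a block (a replicate block that here equals leaving out Osx+ replicate 4 in its differences), 18 with array weights, 3 without genes under the median signal, 5 within low-Xist arrays, and 3 to 14 when 1 array was left out (4 without Ocn+ replicate 2, 3 without Ocn+ replicate 3, 5 without Osx+ replicate 2, 14 without Osx+ replicate 4). The share of all genes at such a p was taken only in the main fit (5.31%). The counts in the other settings therefore have no background beside them and cannot be read as a result about the members. With array weights the genes called after adjustment also rose over all genes, from 0 to 97. The block called 0 members, and only Ocn+ replicate 1 correlated best with its own number. Of 37 named members 26 kept their sign in every alternative, as did all 12 named pathway genes. The pathway genes and many of the members were named for a small p in these same arrays. That choice favours a stable sign, so these counts lend no support of their own. Where the groups did not overlap, leaving out an array or keeping a single Xist class could not turn the sign. Some alternatives could not turn a sign. The trended robust prior and the filters on dim genes leave each difference as it was, and so do the probe set choices for a gene with 1 probe set. The sign turned within low-Xist arrays for Cd300ld (0.18), Fcer1g (-0.045), Fcgr2b (0.26), Marco (0.22) and Tlr3 (-0.22), and within high-Xist arrays for Nlrp6 (0.20), Siglecf (0.023) and Tlr3 (-0.15). With array weights it turned for Nlrp6 (0.025), Siglecf (0.13) and Tlr3 (-0.045), with the block for Fcer1g (-0.28) and Siglece (-0.37), with median centring for Fcer1g (-0.026), Nlrp4c (-0.032) and Siglece (-0.013), and with quantile normalization for Siglece (-0.021). Tlr3 also turned with the mean of all probe sets (-0.15) and the Xist class as a term (-0.18). Values with 1 array left out turned sign for Clec11a (-0.052 to 0.18), Fcer1g (-0.28 to 0.28), Fcgr2b (-0.81 to 0.13), Marco (-0.68 to 0.13), Nlrp4c (-0.0097 to 0.078), Nlrp6 (-0.63 to 0.26), Siglec1 (-0.37 to 0.035), Siglece (-0.37 to 0.37), Siglecf (-0.33 to 0.25) and Tlr3 (-0.47 to 0.66). The cause of these changes was not tested. Dim probe sets limit what can be read: 17 members lay below the 25th percentile of signal.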
